A study of Mus musculus with 18 samples.

Results

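The genes Gpr33, Gpr141b, Lrrk2, Rab30, Gnb4, Net1, Serpinb6b, Cd24a, Cadm1 and Dpp4 were listed from earlier results of these arrays as genes restricted to dendritic cells. They make up 10 of the 22180 genes measured. Probes annotated to 1 of these symbols alone were used, which gave 11 of 33793 probes: Cd24a had 2, averaged here, and each other gene had 1. The list was chosen on the difference between dendritic cells and macrophages, so that difference is described below without a test. Comparisons of GFP-plus with GFP-minus cells did not enter the choice and were tested.

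Expression was measured on 18 arrays of RNA from phagocytes of the small intestine of male and female mice. All 6 groups came from VDTR mice, a strain known to carry a diphtheria toxin receptor joined to green fluorescent protein (GFP) under the villin promoter of gut epithelial cells, and all mice had received diphtheria toxin into the peritoneum at 2 ng per kg, 4 hours before they were killed. Live cells positive for CD45, CD11c and MHCII were sorted as dendritic cells (CD103+ CD24+), as macrophages positive for CD103, CD11b and CD64 (M103) or as macrophages gated on CD11b and CD64 (M11b). Each population was divided into GFP-plus cells, which hold GFP although the transgene is epithelial, and GFP-minus cells, with 3 arrays per group. The GFP-minus cells are no untreated control, since they came from mice with the same transgene and toxin. Nothing in the labels ties a group's replicates to separate mice, so the p-values measure the spread between these samples, which may be technical. In sorted bulk RNA, fewer cells of a type and less RNA per cell cannot be told apart.

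CD103+ intestinal dendritic cells of the type that lacks CD11b carry antigen from the gut wall to lymph nodes and present it to T cells. Resident gut macrophages take up dying cells in place and express CD64 and complement genes. The listed genes encode surface receptors and the G protein subunit that signals below such receptors (Gpr33, Gpr141b, Gnb4), regulators of the cytoskeleton and of vesicle traffic (Net1, Lrrk2, Rab30), a protease inhibitor (Serpinb6b), and surface glycoproteins (Cd24a, Cadm1, Dpp4).

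Values are on a log2 scale, centred so that each probe has a median of 0 across the 18 arrays. A value near 0 is therefore the typical level of that gene in this series. It does not show whether the RNA was present or absent, and levels of different genes cannot be compared. The macrophage arrays, 12 of 18, largely set that 0.

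The gates were checked first against marker genes. Of 27 measured dendritic cell genes, 13 were higher on every dendritic cell array than on every macrophage array, against 0.839% of all genes. Of 19 macrophage genes, 17 were lower on every dendritic cell array, against 1.98% of all genes. Both counts include genes of proteins used in the gates, Itgae in the first and Fcgr1 and Itgam in the second. Xcr1, the chemokine receptor of cross-presenting dendritic cells, is given as an example chosen after its values were seen. It lay at 3.49 to 5.23 on the dendritic cell arrays and at -0.87 to 1.51 on the macrophage arrays. Fcgr1, which encodes CD64, lay at -5.33 to -3.91 on dendritic cell arrays and at -0.34 to 0.39 on macrophage arrays. Itgam, which encodes CD11b, lay at -4.82 to -3.78 and at -0.30 to 0.65. H2-Ab1 (MHCII), Itgax (CD11c) and Ptprc (CD45), on which every population was gated, overlapped between the cell types. Itgae, which encodes CD103, was high on all dendritic cell arrays (4.93 to 5.56) but did not follow the gate among macrophages. It read 3.44, -0.43 and 2.66 on the GFP-minus M103 arrays and -0.44, -0.15 and 0.05 on the GFP-plus M103 arrays, beside -0.53 to -0.05 on the M11b arrays. The CD103 label of M103 was thus matched by its RNA on only 2 of 6 arrays. Those arrays, replicates 1 and 3 of GFP-minus M103, are named below beside several listed genes that were raised on one or both of them. The 27 dendritic cell genes, Itgae among them, averaged 0.12 and 0.27 there. On the other macrophage arrays they averaged -0.94 to -0.07. Whether dendritic cells were present in those 2 samples was not tested.

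Gpr33 encodes an orphan receptor related to chemoattractant receptors. Its value was 4.97, 4.94 and 5.58 in GFP-minus dendritic cells and 5.59, 5.62 and 5.002 in GFP-plus dendritic cells. The macrophage arrays ran from -0.53 to 0.25 (median -0.19), so that 4.69 log2 units separated the lowest dendritic cell array from the highest macrophage array. No other listed gene had so wide a gap. Dendritic cells exceeded M103 by 5.33 and M11b by 5.38 in the GFP-minus gate, and by 5.47 and 5.70 in the GFP-plus gate (each SE 0.24, n = 3 per group). Gpr141b, another orphan receptor, read 4.94, 5.07 and 5.07 in GFP-minus dendritic cells and 4.19, 4.39 and 3.54 in GFP-plus dendritic cells. Its macrophage arrays ran from -0.90 to 0.52, a gap of 3.02. The differences were 5.66 and 5.23 against GFP-minus M103 and M11b, and 4.22 and 3.87 against the GFP-plus macrophages (SE 0.27).

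The profiles of the Gpr33 and Gpr141b genes had a Pearson r of 0.974 over the 18 arrays, which share the split into dendritic cells and macrophages. The 250 bases before each gene's start are shown for these 2 orphan receptor genes. Other pairs were as parallel: Net1 with Gpr33 had an r of 0.977, and Lrrk2 with Gpr141b 0.965. Neither motif marked below stood in the promoters of Net1 or Lrrk2. The stretches shown are from RefSeq on mouse build GRCm38.p6, on the minus strand, at chr12:52028064-52028313 for Gpr33 and at chr13:19732952-19733201 for Gpr141b. Capitals mark a match to the joint ETS and IRF motif (GGAA, 2 bases of any kind, GAAA) in Gpr33, and to the IRF motif (GAAA, 2 bases of any kind, GAAA) in Gpr141b.
Gpr33: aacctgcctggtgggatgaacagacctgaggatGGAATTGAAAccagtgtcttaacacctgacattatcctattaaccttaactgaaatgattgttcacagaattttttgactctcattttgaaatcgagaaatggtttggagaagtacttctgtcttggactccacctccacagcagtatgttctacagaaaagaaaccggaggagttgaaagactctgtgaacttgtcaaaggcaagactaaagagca
Gpr141b: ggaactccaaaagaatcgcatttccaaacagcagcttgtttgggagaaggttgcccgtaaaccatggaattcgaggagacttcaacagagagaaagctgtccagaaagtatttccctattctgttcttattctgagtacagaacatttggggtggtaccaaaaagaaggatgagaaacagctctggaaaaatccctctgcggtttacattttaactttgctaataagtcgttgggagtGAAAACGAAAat
Both motifs were searched on both strands. The joint motif stood in 1 of the 7 promoters found for 6 of the listed genes, and in 2.3% of 32851 promoters of this length. The IRF motif stood in 2 of 7 (Gpr141b and Dpp4) and in 2.98% of all. The shorter ETS core GAGGAA, which can share bases with the joint site, stood in 3 of 7 (Dpp4, Serpinb6b and 1 of the 2 Net1 promoters) and in 23.3% of all. The RUNX core TGTGGT stood in 0 of 7 (14% of all), and the AP-1 site TGANTCA in 0 of 7 (6.75% of all). These are letter matches in a window, and no binding was measured.

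Gnb4 encodes a beta subunit of heterotrimeric G proteins, which carries signals from receptors such as those above. It read 4.38, 4.90 and 4.52 in GFP-minus and 5.40, 4.02 and 4.55 in GFP-plus dendritic cells. On the 12 macrophage arrays it stayed between -0.14 and 0.13, the narrowest macrophage range of the 10 genes, and the gap was 3.89. The difference from macrophages was nearly the same in all 4 comparisons, at 4.62 (M103) and 4.64 (M11b) among GFP-minus cells and 4.63 and 4.73 among GFP-plus cells (SE 0.25).

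Net1 encodes a guanine nucleotide exchange factor. It read 4.42, 3.93 and 4.03 in GFP-minus and 4.52, 4.53 and 4.82 in GFP-plus dendritic cells. The macrophage arrays ran from -0.80 to 1.45, and the highest was replicate 1 of GFP-minus M103. The differences in the GFP-minus gate were 3.77 from M103 and 4.39 from M11b, and in the GFP-plus gate 4.70 and 5.001 (SE 0.40).

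Lrrk2 encodes a kinase that phosphorylates Rab GTPases, the switches of vesicle traffic. Its 3 GFP-minus dendritic cell arrays agreed closely at 5.02, 5.15 and 4.82. The GFP-plus arrays split, with replicates 1 and 2 at 3.05 and 3.37 and replicate 3 at 4.87. The macrophage arrays ran from -0.37 to 0.24. The difference was 5.24 from M103 and 5.04 from M11b among GFP-minus cells, and 3.90 and 3.87 among GFP-plus cells (SE 0.34).

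Rab30, a Rab GTPase of the Golgi, had the largest average difference of all 22180 genes, 6.13 log2 units over the 4 comparisons, or 70.1-fold. It read 7.23, 7.60 and 6.63 in GFP-minus dendritic cells. In GFP-plus dendritic cells it read 7.03 and 6.09 on replicates 2 and 3 but 0.84 on replicate 1, only 0.29 above the highest macrophage array (0.54). The difference in the GFP-plus gate was 4.81 from M103 and 4.67 from M11b (SE 1.06), and 6.72 and 6.58 without that array. The same array was the lowest dendritic cell array for Lrrk2 (3.05) and Dpp4 (-0.12) as well, but not for Gpr33 (5.59) or Gnb4 (5.40). It had the second lowest array weight of the 18 (0.414, range 0.352 to 2.52), a measure of how closely an array follows its group.

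Serpinb6b encodes an intracellular serine protease inhibitor. The dendritic cell arrays lay at 4.01, 4.20 and 4.17 (GFP-minus) and at 4.66, 4.61 and 4.65 (GFP-plus). The macrophage arrays were spread from -1.69 to 1.68, with the top value again on replicate 1 of GFP-minus M103. The mean over 6 arrays was 0.12 in M103 and -0.96 in M11b. Dendritic cells exceeded GFP-minus M103 by 3.78 and M11b by 5.55, and the GFP-plus populations by 4.74 and 5.13 (SE 0.52).

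Cd24a encodes CD24, a small glycoprotein anchored in the membrane. The dendritic cells were sorted on CD24, so a high value there is part of the gate and is no finding. The mean of its probes was 4.57, 4.51 and 4.64 in GFP-minus and 3.87, 4.19 and 3.86 in GFP-plus dendritic cells. On the macrophage arrays it was highest on the same arrays as Itgae, at 1.65 and 1.37 on replicates 1 and 3 of GFP-minus M103, while replicate 2 read -1.09. The other macrophage arrays ran from -1.86 to 0.24. Both probes separated all dendritic cell arrays from all macrophage arrays, with dendritic cells at 3.47 to 4.82 on one and 3.67 to 4.62 on the other. The difference was 3.93 from M103 and 5.09 from M11b among GFP-minus cells, and 4.996 and 5.31 among GFP-plus cells (SE 0.58).

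Cadm1 and Dpp4 did not have the pattern that the list was named for. Cadm1 encodes an adhesion molecule that binds the T cell protein CRTAM. It read 0.42, 0.66 and 0.80 in GFP-minus and 0.54, 0.72 and 0.92 in GFP-plus dendritic cells, a tight range. The macrophage arrays were spread from -2.60 to 0.60, and 2 of 12 reached the lowest dendritic cell array. The difference was 2.17 from M103 and 1.88 from M11b among GFP-minus cells, but 1.17 and 0.53 among GFP-plus cells (SE 0.54). Dpp4 encodes CD26, a peptidase that trims chemokines. It read 0.19, 1.05 and 0.99 in GFP-minus and -0.12, 0.44 and 0.58 in GFP-plus dendritic cells, with macrophage arrays from -2.21 to 0.32 (the highest was replicate 3 of GFP-minus M103), of which 5 of 12 reached the lowest dendritic cell array. It exceeded M103 by 2.04 and 1.67 (GFP-minus and GFP-plus) and M11b by 1.23 and 0.27 (SE 0.58). The Dpp4 mean over 6 arrays was -1.33 in M103 and -0.23 in M11b.

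Ranked by the mean of the 4 differences, the other 8 genes held ranks 1 (Rab30), 3 (Gpr33), 6 (Cd24a), 8 (Serpinb6b), 9 (Gpr141b), 10 (Gnb4), 13 (Lrrk2) and 14 (Net1) of 22180. Cadm1 ranked 247 with a mean difference of 1.44, or 2.71-fold, and Dpp4 ranked 287 with 1.30, or 2.47-fold. The word strongest therefore did not describe Cadm1 and Dpp4. The 6 dendritic cell arrays all lay above the 12 macrophage arrays for those 8 genes and not for Cadm1 or Dpp4. Within single comparisons the groups did not overlap for 9 genes against GFP-minus M103 (9.31% of all genes), 9 against GFP-minus M11b (8.44%), 9 against GFP-plus M103 (7.47%) and 8 against GFP-plus M11b (11.4%). These counts follow from the choice of genes. The median difference of the 10 genes was 4.27, 5.06, 4.67 and 4.70 in that order, beside -0.02, -0.03, -0.04 and -0.03 over all genes.

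**Figure D1:**
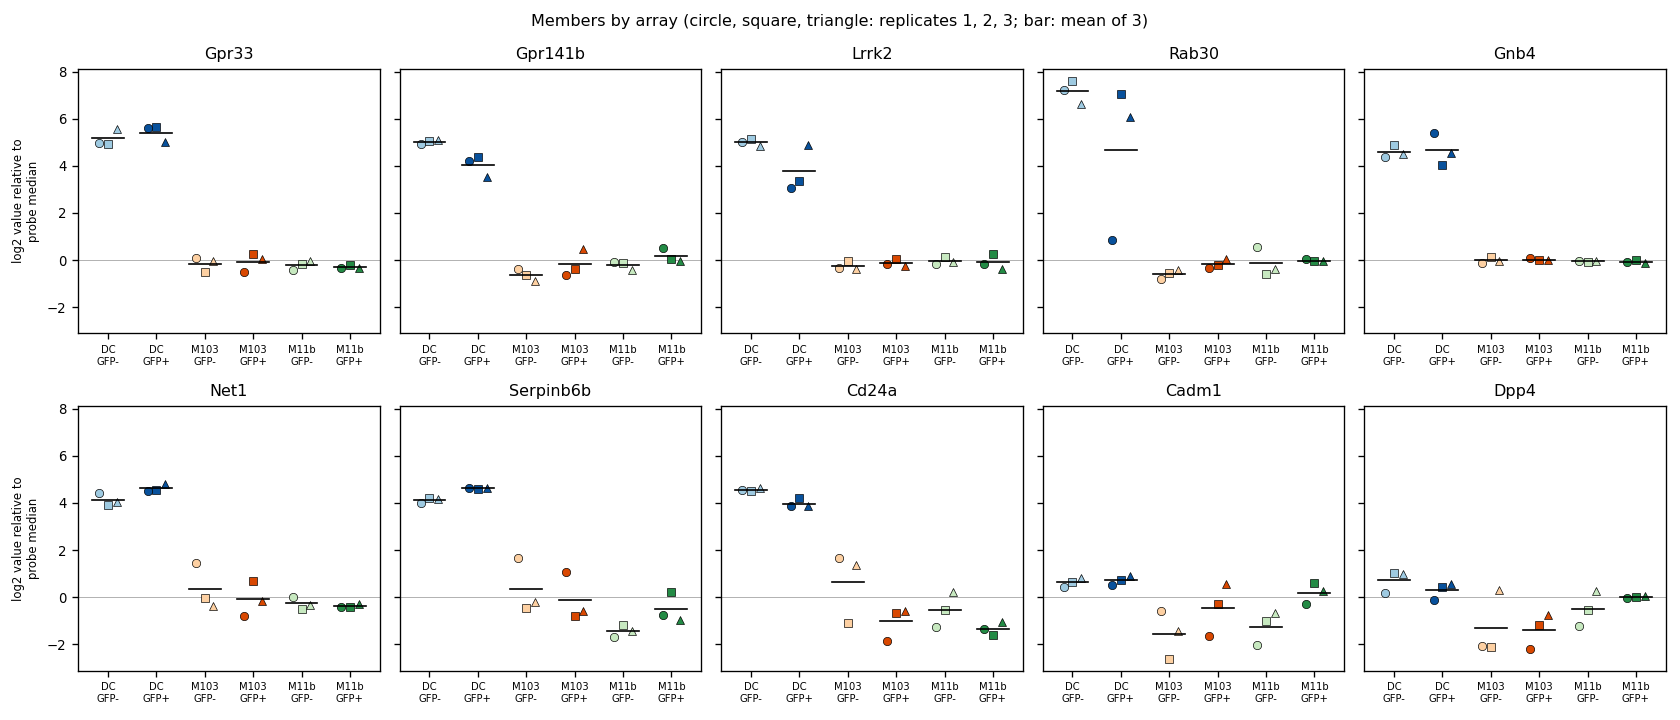
Log2 value relative to the probe median (vertical axis) of each of the 10 genes on the 18 arrays, grouped by population and GFP gate (circle, square and triangle: replicates 1, 2 and 3, bar: mean of 3). Gpr33, Gnb4, Gpr141b, Lrrk2, Net1, Serpinb6b and Cd24a stood clear of the macrophages in all 6 dendritic cell arrays, Rab30 had 1 low GFP-plus dendritic cell array at 0.84, and Cadm1 and Dpp4 overlapped with macrophages.

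**Figure D2:**
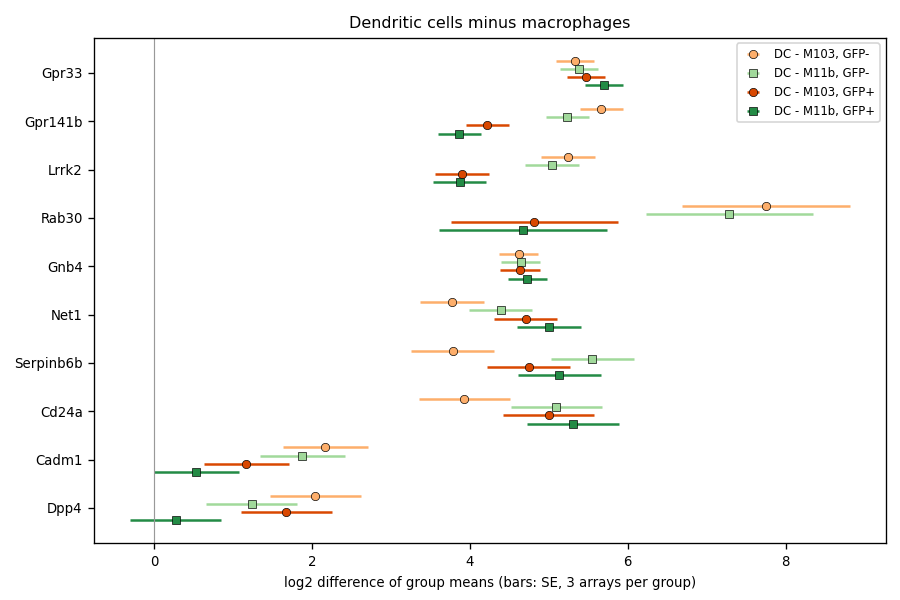
Difference of group means, dendritic cells minus macrophages, in log2 units (horizontal axis, bars are the SE from the fit with 3 arrays per group) for the 10 genes against each macrophage population in each GFP gate. Gnb4 kept 4.62 to 4.73 in every comparison, while Cadm1 and Dpp4 came down to 0.53 and 0.27 against GFP-plus M11b.

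The profiles over the 18 arrays gave the same split. Among the other 8 genes, Pearson r lay between 0.824 and 0.987 (28 pairs), whereas Cadm1 or Dpp4 with those 8 gave 0.451 to 0.694 (16 pairs). These values describe arrays that share the difference between cell types. The genes most like the mean profile of the 10 were Rasgrp3 (r = 0.986), Flt3 (0.986), Hepacam2 (0.979), Actn1 (0.976) and Hmgn3 (0.976). Flt3 is the growth factor receptor of dendritic cells. By gene, the closest profile to Gpr33 was that of Gnb4 (0.987). Hepacam2 was closest to Gpr141b (0.985) and to Gnb4 (0.989), Rasgrp3 to Lrrk2 (0.991), Ffar4 to Rab30 (0.982) and Flt3 to Net1 (0.980). Actn1 was closest to Serpinb6b (0.962), and Cd8a, a surface protein of some dendritic cells and T cells, to Cd24a (0.987). Cadm1 and Dpp4 had more distant neighbours, Fchsd2 (0.925) and Cop1 (0.907).

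Relatives and partners of the listed genes were compared between dendritic cells and macrophages in the same way. Of 72 measured, 5 lay above all macrophage arrays on every dendritic cell array (0.839% of all genes) and 7 lay below (1.98%). The examples in this and the next paragraph were chosen after their values were seen. The receptors most related to Gpr33 went the opposite way: the complement receptors C5ar1 and C3ar1 differed by -5.46 and -5.68 on average over the 4 comparisons, and the chemoattractant receptors Cmklr1 and Fpr2 by -3.46 and -3.16. Gpr141, the neighbour in name of Gpr141b, differed by -1.97 (from -2.80 to -0.81), with arrays that overlapped. It read as high as 3.13 on replicate 3 of GFP-minus M103, where Gpr141b read -0.90. How far probes for such related genes take up each other's RNA cannot be read from these values.

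Among relatives of Serpinb6b, the close paralogue Serpinb6a differed by -0.47 while Serpinb9, an inhibitor of granzyme B, was higher in dendritic cells by 2.71. Serpinb1a averaged 4.04 but was uneven, at -0.20 to 6.54 on dendritic cell arrays. Of the Rab proteins that the LRRK2 kinase acts on, Rab10, Rab43 and Rab8a differed by 0.64, 0.94 and 0.14, and Rab35, Rab12 and Rab29 by -0.14, -0.41 and -0.72. Gnas, a G protein alpha subunit, was higher by 0.89. The median difference of the 3 other measured beta subunits was -0.01 from GFP-minus M103 and -0.01 from GFP-minus M11b, and 0.30 and 0.20 in the GFP-plus gate, with single differences from -0.72 to 1.09 in the 4 comparisons. Ccl22, a chemokine that DPP4 cuts, was higher by 3.02, and Cxcl10, which it also cuts, differed by -1.91.

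**Figure D3:**
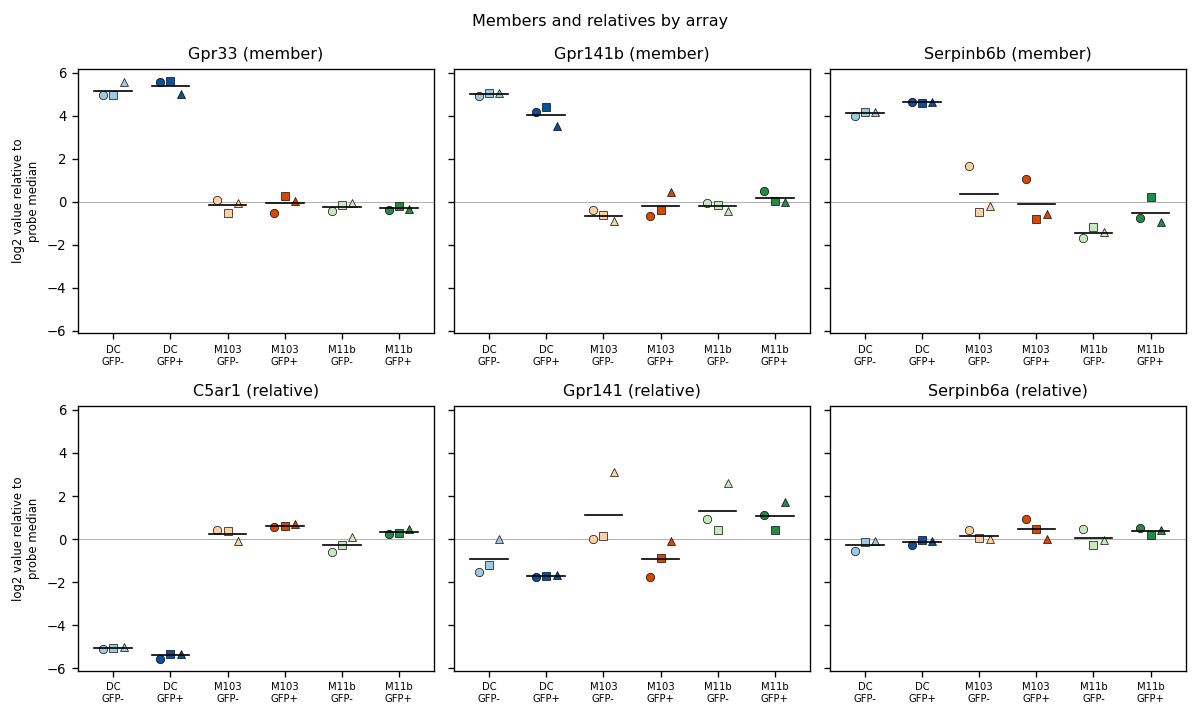
Log2 value relative to the probe median on the 18 arrays for Gpr33, Gpr141b and Serpinb6b (upper row) and for their relatives C5ar1, Gpr141 and Serpinb6a (lower row), with replicates as circles, squares and triangles and group means as bars. C5ar1 was lower on every dendritic cell array (-5.55 to -5.01) than on every macrophage array (-0.60 to 0.69), the reverse of Gpr33.

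Whether uptake of GFP went with a change in the listed genes was tested within each population with limma, adjusted over all 22180 genes. None of the 10 genes passed an adjusted p of 0.05 in any population. In dendritic cells, 1.58% of all genes passed (351 genes). The share was 0.0541% in M103 (12 genes) and 0.0271% in M11b (6 genes). At an unadjusted p under 0.05, limma counted 3 of the 10 genes in dendritic cells (15.4% of all genes), 1 in M103 (9.20%) and 1 in M11b (6.16%). The smallest adjusted p among them was 0.0898, 0.354 and 0.711. The median change of the 10 genes was -0.19, 0.07 and 0.04, beside -0.02, 0.02 and 0.01 over all genes.

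Gpr141b and Lrrk2 came nearest to a call in dendritic cells. Gpr141b was lower on all 3 GFP-plus arrays (3.54 to 4.39) than on all 3 GFP-minus arrays (4.94 to 5.07), a change of -0.99 ± 0.27 (SE, 95% interval -1.58 to -0.40, limma adjusted p = 0.0902). Lrrk2 changed by -1.23 ± 0.34 (SE, interval -1.96 to -0.50, limma adjusted p = 0.0898), and its groups overlapped because GFP-plus replicate 3 stood with the GFP-minus arrays. Without that array Lrrk2 passed, at -1.78 (limma adjusted p = 0.000639, range 0.000639 to 0.495 over 15 alternatives). Rab30 changed by -2.50 ± 1.06 (SE, interval -4.77 to -0.23, limma adjusted p = 0.271). This value rested on GFP-plus replicate 1, and without it the change was -0.59.

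The other listed genes had smaller differences in dendritic cells. Cd24a was lower on all GFP-plus arrays (-0.60 ± 0.58 SE), while Net1 (0.50 ± 0.40 SE) and Serpinb6b (0.51 ± 0.52 SE) were higher on all of them. These sets without overlap, 2 genes higher and 2 lower, stood beside 8.66% and 11.5% of all genes. The fit shares a spread per gene over all 6 groups, so these SEs carry the macrophage spread. The SD of Serpinb6b was 0.10 and 0.024 in GFP-minus and GFP-plus dendritic cells, and 0.27 to 1.17 in the macrophage groups. That of Cd24a was 0.06 and 0.19, and 0.27 to 1.51 in the macrophage groups. Gpr33 differed by 0.24 (95% interval -0.28 to 0.76), Gnb4 by 0.06 (-0.47 to 0.59), Cadm1 by 0.10 (-1.07 to 1.26) and Dpp4 by -0.45 (-1.68 to 0.79). For Gpr33 and Gnb4, a change of 1 log2 unit in either direction lay outside the interval of this fit. An interval from the dendritic cell arrays alone is not given here. The SD of Gnb4 was 0.27 and 0.70 in GFP-minus and GFP-plus dendritic cells, against 0.035 to 0.14 in the macrophage groups. That of Gpr33 was 0.36 and 0.35, against 0.07 to 0.39. The interval of Cadm1 held such a change in both directions, and that of Dpp4 a decrease of this size.

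In macrophages the largest differences were those of Cd24a in M103 and Cadm1 in M11b, of opposite sign, and neither passed. Cd24a differed by -1.67 ± 0.58 (SE, limma adjusted p = 0.354) in M103, where GFP-minus replicates 1 and 3 were the high arrays. It passed without GFP-minus replicate 2, at -2.54 (limma adjusted p = 0.0425, range 0.0171 to 0.744 over 15 alternatives). Itgae, high on the same 2 arrays, differed by -2.07 (limma adjusted p = 0.282). A list of T and innate lymphocyte genes averaged 1.21, 1.38 and 2.66 on GFP-minus M103 replicates 1, 2 and 3. Replicate 2 was thus not the lowest of them for this list, although Cd24a read -1.09 there. On the GFP-plus M103 arrays the list averaged -0.06 to 0.59. Of its 13 measured genes, 1 passed as lower in M103 (0.0271% of all genes), Cd7, named after its value was seen. The part of this list in the Cd24a difference was not tested. Cadm1 differed by 1.44 ± 0.54 (SE, limma adjusted p = 0.711) in M11b, with all GFP-plus arrays (-0.30 to 0.60) above all GFP-minus arrays (-2.04 to -0.68), and by 1.10 ± 0.54 (SE, adjusted p = 0.574) in M103. In M103 the arrays did not overlap for Rab30 alone (higher, 7.54% of all genes), and in M11b for Cadm1, Serpinb6b and Gpr141b (higher, 9.63%). No listed gene was lower without overlap in either (5.44% and 6.24%).

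**Figure D4:**
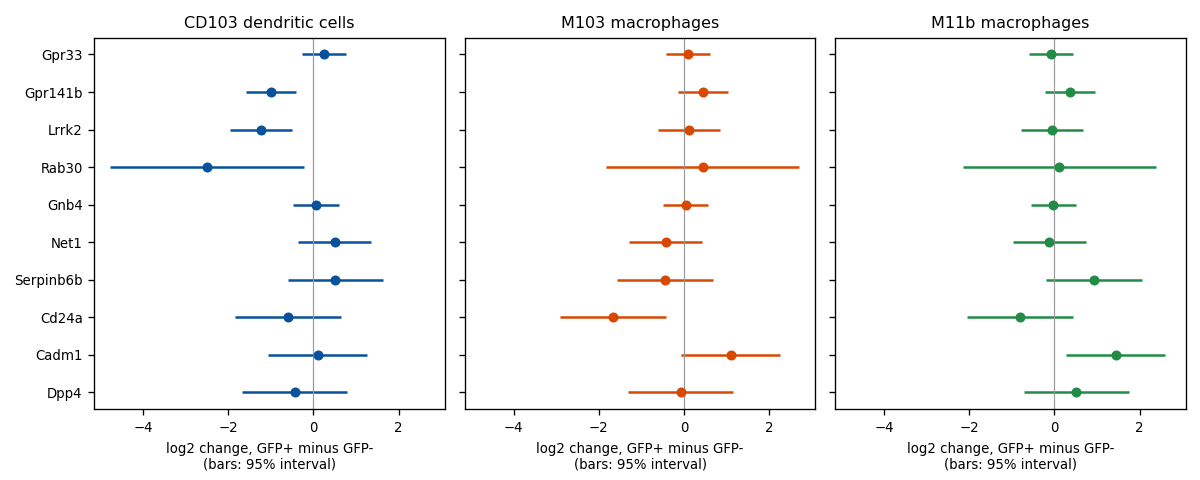
Change between GFP-plus and GFP-minus cells in log2 units (horizontal axis) for the 10 genes in dendritic cells, M103 and M11b. Bars are 95% intervals from the limma fit, with a spread per gene shared by all 6 groups. Gpr33 and Gnb4 stayed near 0 in all 3 populations, but centred values do not show whether either RNA was present in macrophages. The Gnb4 interval in dendritic cells carries the smaller macrophage spread (SD 0.27 and 0.70 in dendritic cells, 0.035 to 0.14 in macrophages). In dendritic cells Gpr141b (-0.99), Lrrk2 (-1.23) and Rab30 (-2.50) lay to the left, none with a limma adjusted p under 0.05.

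The change in dendritic cells was then set against the mean change in the macrophage populations within the same fit. None of the 10 genes passed by limma, 2 had an unadjusted p under 0.05 (16.5% of all genes), and 1.33% of all genes passed. Gpr141b had the smallest adjusted p, with a difference of -1.41 ± 0.33 (SE, interval -2.12 to -0.69, limma adjusted p = 0.0555). It passed under 4 of 26 alternatives, among them without GFP-plus dendritic cell replicate 2 (-1.58, limma adjusted p = 0.0319) and without GFP-plus M103 replicate 1 (-1.52, limma adjusted p = 0.0239), with a range of 0.0239 to 0.130. Lrrk2 differed by -1.26 ± 0.41 (SE, limma adjusted p = 0.140), and by -1.81 (limma adjusted p = 0.00308, range 0.00308 to 0.492 over 26 alternatives) without GFP-plus dendritic cell replicate 3.

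Other genes of these cells did change with GFP. Of 27 dendritic cell genes, 1 passed as higher and 4 as lower in GFP-plus dendritic cells (0.325% and 1.26% of all genes). By limma 0 passed in either macrophage population. An unadjusted limma p under 0.05 was reached by 8 in M103 (9.2% of all genes) and by 4 in M11b (6.16%). Ly75, the endocytic receptor DEC-205, rose from 4.26, 4.00 and 4.02 to 5.30, 5.49 and 5.42, by 1.31 ± 0.13 (SE, limma adjusted p = 0.000116). Gcsam fell from 2.06, 3.62 and 3.32 to 0.02, -0.25 and 0.54, by 2.90 ± 0.31 (SE, limma adjusted p = 0.000290). Itgb7, the integrin chain that pairs with CD103, fell by 1.74 (limma adjusted p = 0.0222), and Notch2, a receptor required by some intestinal dendritic cells, fell by 1.43 (limma adjusted p = 0.0307). The other was Rab7b, a Rab GTPase of late endosomes, named after its value was seen, which fell by 2.42 (limma adjusted p = 0.0348). The fall of Itgb7 was not particular to dendritic cells, although it did not pass in macrophages. In M103 Itgb7 went from 0.78, -0.53 and 0.78 to -2.08, -1.67 and -1.10. In M11b it went from -0.0001, 0.28 and 0.21 to -1.40, -1.40 and -1.54. Of 19 macrophage genes, 3 passed as lower in GFP-plus dendritic cells, and 12 had an unadjusted p under 0.05 by limma (15.4% of all genes). Ms4a7, a membrane protein of macrophages, fell by 2.38 ± 0.16 (SE, limma adjusted p = 5.59e-06). The other 2 were Lyz2, which encodes lysozyme, and the complement gene C1qa, which fell by 0.92 and 1.53. The Gcsam, Itgb7, Notch2, Lyz2 and C1qa calls were lost in 1, 5, 7, 7 and 9 of 15 alternatives.

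Markers of other cells moved in the same comparison. Averaged over the 20 enterocyte genes, GFP-minus dendritic cell arrays lay at -0.18 to 0.03 and GFP-plus arrays at 0.40 to 0.64. Of the 20, 1 passed as higher (Fabp6, a bile acid carrier of the ileum, by 3.93). The 12 genes of secretory epithelium averaged -0.30 to -0.24 and 0.09 to 0.73, with 1 passing as higher (Defa24, a Paneth cell defensin, by 4.34). In this list Agr2 read 4.38 on GFP-plus replicate 3 and at most 0.11 on the other dendritic cell arrays. Single genes thus weighed on these averages, and the median change per gene was 0.18 in this list and 0.20 in the enterocyte list. The lymphocyte list averaged 0.11 to 0.73 and -0.39 to -0.31, and Gzma alone of 13 passed as lower. The B and plasma cell list averaged 0.21 to 0.37 and -0.43 to -0.11, and Ighm alone of 9 passed as lower. Without passing, Gzmb (1.59 to 2.36 and -0.78 to -0.67) and Jchain (1.62 to 1.71 and -0.25 to 0.94) were also lower on all GFP-plus arrays. Over all genes, 11.5% were lower in this way. The macrophage list averaged -3.67 to -3.16 and -4.15 to -3.92. These single genes were named after their values were seen. Centred values do not show which genes were absent. The part of these shifts in the changes of the listed genes was not tested.

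Relatives and partners of the listed genes included 5 that passed in a GFP comparison: 2 rose and 2 fell in dendritic cells, and 1 rose in M103 and in M11b (of 72 in each, 4 of the 5 described here). Over all genes, 0.325% rose and 1.26% fell in dendritic cells, and 0.0271% rose in M103 and 0.0135% in M11b. Epb41l3, a cytoskeletal protein that binds the tail of CADM1, rose in both macrophage populations. In M103 it went from -0.03, -0.41 and -0.41 to 2.61, 1.499 and 2.25, by 2.40 ± 0.32 (SE, limma adjusted p = 0.0269). In M11b it went from 0.06, 0.03 and 0.49 to 2.09, 3.54 and 2.46, by 2.50 ± 0.32 (SE, limma adjusted p = 0.0155). In dendritic cells it differed by -0.14 ± 0.32 (SE, limma adjusted p = 0.890), and the difference between the cell types was -2.59 ± 0.39 (SE, limma adjusted p = 0.00621). The M103 call was lost in 2 and the M11b call in 6 of 15 alternatives, among them the fit on only the arrays compared (limma adjusted p = 0.322 and 0.205). Marker lists moved in the same comparisons. The 9 measured monocyte genes averaged 0.48 to 0.89 on GFP-minus and -0.37 to 0.01 on GFP-plus M103 arrays, and 0.38 to 0.88 and -0.57 to -0.23 in M11b. In M11b 1 of them passed as lower (0.0135% of all genes), Plac8, named after its value was seen. The enterocyte list averaged -0.20 to 0.29 and -0.003 to 0.33 in M103, and -0.42 to -0.17 and 0.09 to 0.40 in M11b. Their part in the Epb41l3 and Cadm1 values was not tested.

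In dendritic cells Prep, a peptidase of the same family as DPP4, fell from 0.51, 0.61 and 1.11 to -1.76, -1.46 and -1.76, by 2.40 ± 0.34 (SE, limma adjusted p = 0.00360). This call held in all 15 alternatives run. Dpp4 itself differed by -0.45. Pvr, a nectin-like protein related to CADM1, rose by 1.81 ± 0.41 (SE, limma adjusted p = 0.0444), and Gng2, a G protein gamma subunit, fell by 2.14 ± 0.42 (SE, limma adjusted p = 0.0227). The Pvr call was lost in 9 and the Gng2 call in 7 of 15 alternatives. Some other relatives with small p did not pass, among them Rab10 and Rab1b, with 0.79 and -2.38 in M103, and Gnai3, with 1.79 in M11b.

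**Figure D5:**
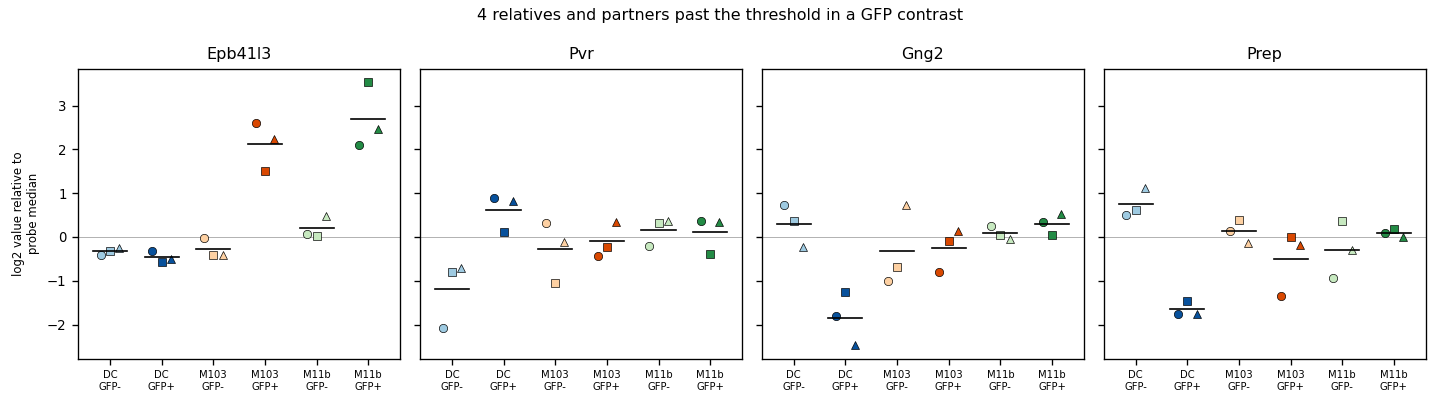
Log2 value relative to the probe median on the 18 arrays for 4 relatives and partners that passed in a GFP comparison (replicates as circles, squares and triangles, bars are means of 3). Epb41l3 lay between 1.499 and 3.54 on the GFP-plus macrophage arrays and at most at 0.49 on the others, whereas Prep and Gng2 were low on the GFP-plus dendritic cell arrays.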

How the data were processed

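RNA (1 ng per sample, taken through NuGEN's WT Ovation Pico amplification, per the labels' protocols) was measured on 18 arrays, 3 per group in 6 groups taken from the labels. The authors deposited 1 table of 33793 probes as log2 values centred on each probe's median over the 18 arrays. The log base is inferred from a span of up to 10.15 units for 1 probe, so folds assume base 2. Not given in the sources used here: array software, summarisation, normalization. Centring leaves neither detection nor depth to be read. Array medians (-0.0377 to 0.0494) were close, and interquartile ranges spread from 0.256 to 0.578. The values were used as deposited.

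The platform annotation gives 1 symbol for 23521 probes, several for 1814 and no symbol for 8458. Averaging the single-symbol probes of a gene left 22180 genes. One mean per group was fitted over all arrays with limma 3.58.1 in R 4.3.3 (lmFit, eBayes, 12 residual degrees of freedom), two-sided, with Benjamini-Hochberg adjustment over all genes and a threshold of 0.05. The fit was tried on simulated data in which the spread of a gene was equal in all 6 groups. The SDs given above differed between groups, and that trial does not cover such differences. With 3 arrays per group, their number limits the precision.

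The genes and all lists were chosen with earlier results of these data known, so no list carries a test or a p adjusted over itself. Named are, except for the partners of Net1 given below, the 10 genes, relatives and partners that passed or had up to 3 smallest p-values per comparison, up to 4 passing dendritic cell or macrophage genes per comparison, the sort markers, and the genes with the most similar profiles. Other genes are said to be chosen after their values were seen. Promoters came from RefSeq (GRCm38.p6).

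Alternatives were quantile normalization, array medians, array weights, 1 probe per gene, robust variances, the least variable 25% of genes left out, only the arrays compared, a replicate block, each array left out and, added after seeing the data, the 4 arrays of lowest weight left out. Results for some partners of Net1, which the rule would have named, are not reported here. A brightness filter needs absolute signal and was not run.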

Additional observations from a re-analysis of the deposited data

Results flagged for a closer look

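None of the 10 listed genes met a rule for a closer look. Of the relatives and partners and the dendritic cell and macrophage genes, 8 had a GFP change in dendritic cells that differed from the mean change in macrophages in limma's test of that difference, each adjusted over all genes. Groups of 3 arrays were too small to test for an outlying array.

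Among partners of the listed genes, the difference was -2.59 for Epb41l3 (adjusted p = 0.00621), -2.28 for Gng2 (adjusted p = 0.0446) and -2.27 for Prep (adjusted p = 0.0210). Among dendritic cell genes it was 1.30 for Ly75 (adjusted p = 0.00119), -2.84 for Gcsam (adjusted p = 0.00248), -1.78 for Notch2 (adjusted p = 0.0284) and -3.01 for Rab7b (adjusted p = 0.0337). Among macrophage genes it was -2.74 for Ms4a7 (adjusted p = 2.58e-05). Over 26 alternatives no call was lost for Epb41l3, Ly75, Gcsam and Ms4a7, while Prep lost it in 3, Notch2 in 11, Rab7b in 14 and Gng2 in 17.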

How the results depend on the processing

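The number of genes called in a GFP comparison moved most. In dendritic cells 351 became 48 with quantile normalization, which also turned the split from 72 higher and 279 lower to 24 and 24, and 85 with only the arrays compared. In M103, 12 became 62 (quantile), 95 (array weights), 30 (without the 4 arrays of lowest weight) and 0 (only the arrays compared by limma, where 1707 genes had an unadjusted p under 0.05). In M11b, 6 became 22 (quantile) and 53 (weights). For dendritic cells minus macrophages, 295 became 50 (quantile), 681 (weights) and 473 (replicate block). Leaving out single arrays gave 118 to 711, 11 to 60, 0 to 34 and 122 to 728, and the counts of 0 had 813 to 1169 genes with an unadjusted p under 0.05. The cause was not tested.

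The median difference of the 10 genes between dendritic cells and macrophages was, under quantile normalization, 3.67 (GFP-minus M103), 4.47 (GFP-minus M11b), 4.16 (GFP-plus M103) and 4.37 (GFP-plus M11b). For GFP-plus M103 it was 4.45 with array weights and 4.34 without the 4 arrays, and for GFP-minus M11b 4.85 without them. Leaving out single arrays gave 4.14 to 4.50, 4.85 to 5.11, 4.42 to 4.58 and 4.45 to 4.71.

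GFP changes that turned sign had not passed the test in the fit as designed. Gnb4 in dendritic cells was -0.15 with weights and -0.32 without the 4 arrays, and against macrophages -0.17 and -0.35. Dpp4 in M103 was 0.22 with weights, and Net1 in M11b was 0.03 without the 4 arrays. With single arrays left out, Gnb4 and Cadm1 in dendritic cells ranged from -0.32 to 0.38 and from -0.007 to 0.19. In M103, Gpr33 ranged from -0.088 to 0.311, Gnb4 from -0.021 to 0.11, Net1 from -0.82 to 0.12, Serpinb6b from -1.03 to 0.22 and Dpp4 from -0.49 to 0.73. In M11b, Gpr33 ranged from -0.18 to 0.001, Lrrk2 from -0.23 to 0.072, Rab30 from -0.11 to 0.45, Gnb4 from -0.058 to 0.004 and Net1 from -0.23 to 0.03. Against macrophages, Gnb4 ranged from -0.32 to 0.37 and Serpinb6b from -0.061 to 0.565.

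Whether replicate numbers pair the samples is not stated in the labels and was not settled here. Deviations from group means were correlated between the GFP-minus and GFP-plus arrays of each population. Same-numbered arrays gave r of -0.138 to 0.248, and 5 of 9 arrays correlated best with their own number. With 3 arrays per group, these values cannot exclude pairing. The replicate block gave 411, 16 and 9 calls in dendritic cells, M103 and M11b in place of 351, 12 and 6. For dendritic cells minus macrophages it gave 473 in place of 295. Of 66 named results it changed 1 call, Gng2 against macrophages (-2.28, limma adjusted p = 0.0527).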
